A study of Mus musculus with 6 samples.

Results

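The 10 genes described here encode the CTLH complex, the RING-type E3 ubiquitin ligase of which MAEA is a subunit. They are *Maea*, *Rmnd5a*, *Ranbp9*, *Ranbp10*, *Gid8*, *Gid4*, *Wdr26*, *Armc8*, *Mkln1* and *Ypel5*. They were taken by symbol from a table of 46959 genes, and all 10 were found and were expressed highly enough to be tested. The table holds RNA-seq of haematopoietic stem cells (HSCs) sorted from the bone marrow of adult mice, given as 8 weeks old, with 3 control and 3 MaeaCsf1r-Cre libraries. Each library was made from about 2000 HSCs, which the study pooled from 2 mice. MaeaCsf1r-Cre mice carry floxed *Maea* alleles and a *Csf1r*-iCre transgene on a C57BL/6 background. *Csf1r* is the receptor gene that defines mononuclear phagocytes, so this Cre is active in macrophages. The paper found it active in HSCs too, which it called surprising and related to *Csf1r* transcripts reported earlier in stem and progenitor cells. The controls were littermates labelled only as control, and whether any of them carried the Cre transgene or a heterozygous allele is not stated for these libraries.

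E3 ligases bring a ubiquitin-charged E2 enzyme to a protein and so mark it for degradation or for sorting. In the CTLH complex, named after the C-terminal to LisH motif that several of its subunits share, MAEA and RMND5A form the catalytic RING pair. GID8, ARMC8 and the paralogs RANBP9 and RANBP10 build the scaffold. GID4 is a receptor that recognises substrates by their N-terminal residues, while WDR26 and muskelin (MKLN1) link the complex into larger assemblies and take part in substrate choice. YPEL5 binds WDR26. The complex is the mammalian counterpart of the yeast GID ligase, and MAEA was first described as an adhesion molecule between macrophages and erythroblasts.

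In control HSCs *Maea* was at 108, 116 and 123 CPM (read counts scaled to the depth of the library), for replicates 1, 2 and 3 in this order, as throughout. In MaeaCsf1r-Cre HSCs it was at 76.9, 88.6 and 101 CPM. Every MaeaCsf1r-Cre library was below every control library, yet reads assigned to the gene remained in each. The mean of 88.8 ± 12.0 CPM in MaeaCsf1r-Cre HSCs, against 116 ± 7.29 CPM in control HSCs (SD, n = 3 each), was a change of -23.3%. Its log2 fold change, on the scale of log2(CPM + 1), was -0.39 with a 95% interval of -0.70 to -0.07 and did not pass the test (adjusted p = 0.967, limma with Benjamini-Hochberg adjustment over 12955 genes). The exact permutation p, two-sided, was 0.1, the smallest that 3 libraries against 3 allow. *Maea* lies on chromosome 5 of GRCm38, from 33335509 to 33373296 on the plus strand. The deposited value counts reads over all its exons, so a transcript that lacks the floxed part still counts. The RNA change is therefore no measure of how completely the gene was deleted. For that, the paper reports efficient deletion in stem and progenitor cells and less MAEA protein on HSCs. The protein was measured by flow cytometry and not in these libraries. In RNA from pooled cells, fewer cells that express a gene and less RNA per cell cannot be told apart.

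The RING partner *Rmnd5a* was also lower in every MaeaCsf1r-Cre library than in any control. Its control libraries held 54.5, 65.9 and 54.4 CPM, and its MaeaCsf1r-Cre libraries 42.7, 44.0 and 41.5 CPM. The 3 MaeaCsf1r-Cre libraries lay close together, and control replicate 2 was the highest of all. The mean of 42.8 ± 1.23 CPM in MaeaCsf1r-Cre HSCs, against 58.3 ± 6.62 CPM in control HSCs (SD, n = 3 each), was a change of -26.6%. On the log2 scale the change was -0.43 (95% interval -0.73 to -0.13) and did not pass the test (adjusted p = 0.967, limma). Among the 10 subunits it had the smallest unadjusted p, 0.0107, which ranked 101 of the 12955 genes tested. *Rmnd5a* is on chromosome 6 of GRCm38, from 71388634 to 71440637 on the minus strand.

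The substrate receptor *Gid4* was the third subunit whose groups did not overlap. It was at 51.1, 51.9 and 51.4 CPM in the control libraries, an SD of only 0.429 CPM. The MaeaCsf1r-Cre replicates 1, 2 and 3 were at 49.3, 31.9 and 37.1 CPM, so replicate 1 was just below the controls and the other two were well below. The mean of 39.4 ± 8.90 CPM (SD, n = 3), against a control mean of 51.5 CPM, was a change of -23.4%. On the log2 scale it was -0.40 (95% interval -0.79 to 0.00) and did not pass the test (adjusted p = 0.967, limma), and it was -0.26 without MaeaCsf1r-Cre replicate 2. *Gid4* is on chromosome 11 of GRCm38, from 60417145 to 60450927 on the plus strand.

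**Figure D1:**
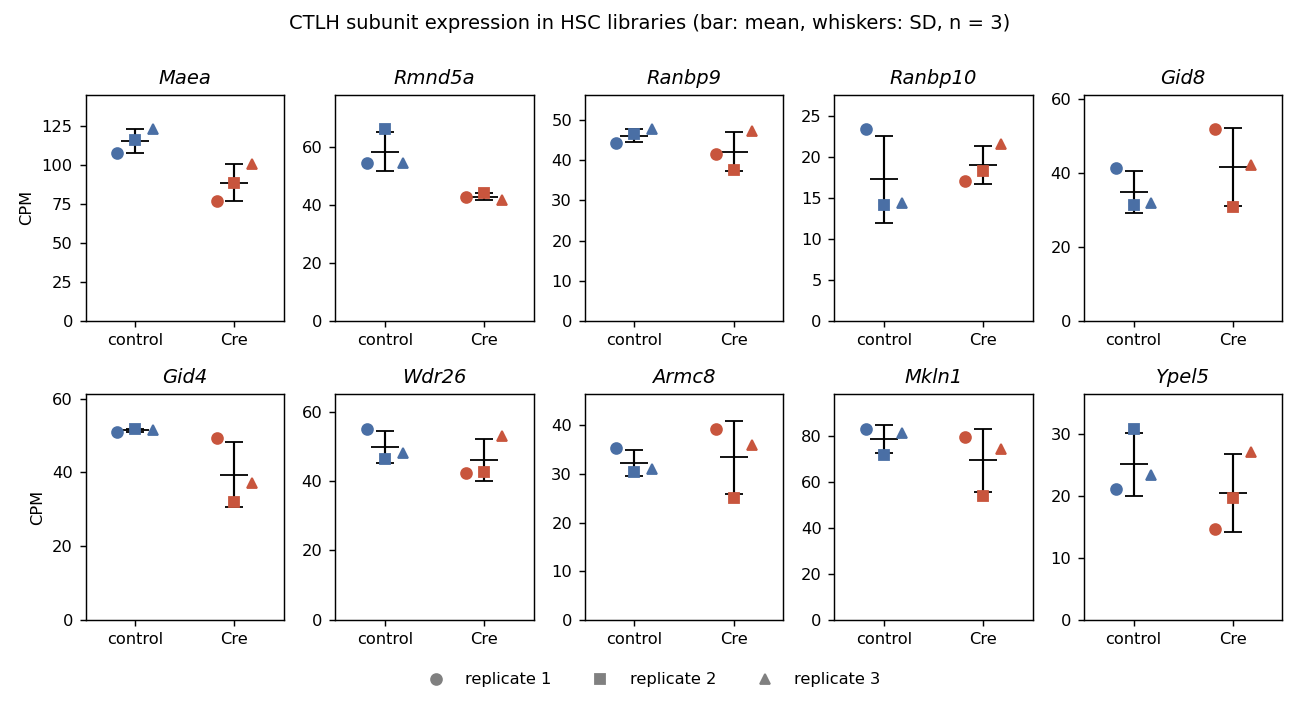
Expression of the 10 CTLH subunits in CPM (vertical axis of each panel, starting at 0) in 3 control and 3 MaeaCsf1r-Cre (Cre) HSC libraries, with points for libraries by replicate number and bars and whiskers for the mean and SD. The 3 Cre points lie below all control points for *Maea*, *Rmnd5a* and *Gid4*, and the groups overlap for the other 7 genes.

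Of the 10 subunits, 3 were lower in every MaeaCsf1r-Cre library than in every control library. This was so for 6.06% of all genes tested, and none of the 10 was higher in every MaeaCsf1r-Cre library, against 2.49% of all genes. By the limma test 0 of the 10 passed an adjusted p of 0.05, as did 0.00772% of the genes tested, a single gene. *Maea*, *Rmnd5a* and *Gid4* had an unadjusted p under 0.05, which 3.99% of genes had. The labels do not say that same-numbered libraries were paired, and a pairing was inferred only from their correlation in these data. When replicate number entered the model as a block, the same 3 subunits were under that unadjusted threshold, against 13.9% of genes. The adjusted p was then 0.218 for *Maea*, 0.218 for *Rmnd5a* and 0.284 for *Gid4* (limma). Seen pair by pair, *Maea*, *Rmnd5a*, *Ranbp9*, *Gid4* and *Mkln1* were lower in 3 of 3 same-numbered pairs, or 5 of 10 subunits where 23.5% of genes were. These counts include *Maea*, the gene that the Cre targets. Of the 9 partners alone, 2 were lower without overlap and 4 were lower in 3 of 3 pairs. An unadjusted p under 0.05 (limma) was found for 2 of the 9, with or without the block.

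The promoters of *Rmnd5a* and *Gid4* are shown as those of the 2 partners whose groups did not overlap. A window from 250 bases before to 50 bases after the start of a transcript was found in RefSeq (GRCm38.p6) for 8 of the 10 subunits, all but *Maea* and *Ranbp10*. The 250 bases before the start are given for *Rmnd5a* (chr6:71440638-71440887, minus strand) and for *Gid4* (chr11:60416895-60417144, plus strand), 5′ to 3′. Capitals mark CCAAT boxes (ATTGG or CCAAT) and GC boxes (GGGCGG or CCGCCC) in the first, and the core of the YY1 motif (AAGATGGC or GCCATCTT) in the second, where the GC box is left in lower case.
Rmnd5a: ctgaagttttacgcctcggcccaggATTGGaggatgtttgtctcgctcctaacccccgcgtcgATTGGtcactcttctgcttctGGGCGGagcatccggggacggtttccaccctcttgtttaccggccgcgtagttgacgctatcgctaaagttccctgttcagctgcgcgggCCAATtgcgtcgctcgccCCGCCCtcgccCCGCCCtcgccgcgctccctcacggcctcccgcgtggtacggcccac
Gid4: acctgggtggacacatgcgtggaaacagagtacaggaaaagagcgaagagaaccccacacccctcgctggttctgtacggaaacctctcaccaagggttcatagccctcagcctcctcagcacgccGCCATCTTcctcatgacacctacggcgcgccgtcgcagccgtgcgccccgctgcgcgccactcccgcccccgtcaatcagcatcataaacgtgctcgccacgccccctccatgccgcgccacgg
Both stretches are rich in G and C, at 64.8% and 64.0%. The *Rmnd5a* stretch held 3 CCAAT boxes and 3 GC boxes, and the *Gid4* stretch held 1 YY1 core and no CCAAT box.

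Motifs were counted on both strands of the 300-base windows, with letters chosen after the sequences were seen, and no motif searched contains another. The GC box GGGCGG occurred in 8 of 8 subunits, against 35.7% of the 32851 windows searched, which leave out a chromosome that holds no subunit. A subunit counted if any of its windows held the motif, while each percentage is of single windows, whether or not their genes were expressed. The YY1 core AAGATGGC occurred in *Gid4*, *Gid8* and *Mkln1*, against 2.75% of windows. The CCAAT box ATTGG was in *Gid8*, *Rmnd5a* and *Ypel5* (37.4% of windows), the E box CACGTG in *Gid4*, *Wdr26* and *Ypel5* (7.15%), and the ETS core CCGGAAG in *Ranbp9* and *Wdr26* (8.86%). The NRF1 core GCGCATGCG was found in *Armc8* (1.75% of windows) and the element TCTCGCGA in *Gid8* (0.995%), while the TATA box TATAAA was in 0 of 8 (13.6%). No motif was shared by *Rmnd5a* and *Gid4* apart from the GC box.

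Among the scaffold subunits, *Gid8* was higher by mean in MaeaCsf1r-Cre HSCs. Control libraries held 41.4, 31.3 and 31.9 CPM, and MaeaCsf1r-Cre libraries 51.8, 30.7 and 42.3 CPM. The groups overlapped, and replicate 1 was the highest library in both. As a log2 fold change the difference was 0.23 (95% interval -0.27 to 0.72, adjusted p = 0.967, limma). It was 0.06 without MaeaCsf1r-Cre replicate 1, 0.43 without MaeaCsf1r-Cre replicate 2 and 0.35 without control replicate 1. *Gid8* lies on chromosome 2 from 180710117 to 180718733 of GRCm38.

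*Armc8*, the armadillo-repeat scaffold, had the smallest difference of the 10. Its MaeaCsf1r-Cre libraries, at 39.3, 25.0 and 35.9 CPM, surrounded the control libraries at 35.3, 30.4 and 31.1 CPM. The log2 fold change was 0.03 (95% interval -0.41 to 0.47, adjusted p = 0.990, limma). It was -0.01 without control replicate 2, -0.10 without MaeaCsf1r-Cre replicate 1 and -0.03 without MaeaCsf1r-Cre replicate 3. *Armc8* lies on chromosome 9 from 99478372 to 99568899.

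The paralogs *Ranbp9* and *Ranbp10* differed in their means in opposite directions, neither beyond the spread of replicates. *Ranbp9* was at 44.3, 46.6 and 47.7 CPM in control libraries and at 41.5, 37.7 and 47.4 CPM in MaeaCsf1r-Cre libraries. It was lower in each same-numbered pair, though barely so in the third. Its log2 fold change was -0.13 (95% interval -0.44 to 0.18, adjusted p = 0.967, limma), and -0.06 and -0.22 without MaeaCsf1r-Cre replicates 2 and 3. *Ranbp10* was at 23.4, 14.1 and 14.4 CPM in control libraries, where replicate 1 stood above the others, and at 17.1, 18.3 and 21.6 CPM in MaeaCsf1r-Cre libraries. Its log2 fold change was 0.16 (95% interval -0.36 to 0.68, adjusted p = 0.967, limma), with 0.38 when control replicate 1 was left out and 0.04, 0.05 and 0.07 without control replicate 2, control replicate 3 and MaeaCsf1r-Cre replicate 3. Per length of exon *Ranbp9* was the higher paralog in all 6 libraries, with a ratio to *Ranbp10* of 2.33 to 4.07 in the control group and 2.54 to 2.99 in the MaeaCsf1r-Cre group. *Ranbp9* (chromosome 13, 43402675 to 43481282) shares 453 bases, 8.8% of its exons, with *Nol7* on the other strand. Libraries of this kind do not mark strand, so reads there cannot be assigned to either gene. *Ranbp10* lies on chromosome 8 from 105768308 to 105827350.

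The subunits around substrate choice other than *Gid4* gave overlapping groups. *Wdr26* (chromosome 1, 181173228 to 181212001) was at 55.1, 46.3 and 48.1 CPM in control libraries and at 42.4, 42.6 and 53.1 CPM in MaeaCsf1r-Cre libraries. Its log2 fold change was -0.12 (95% interval -0.45 to 0.22, adjusted p = 0.967, limma), and with a library left out it ran from -0.22 (MaeaCsf1r-Cre replicate 3) to -0.04 (control replicate 1). Replicate 3 was above its control and the other 2 MaeaCsf1r-Cre libraries were below every control.

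*Mkln1* (chromosome 6, 31398735 to 31516811) was at 83, 71.4 and 80.9 CPM in control libraries and at 79.5, 53.9 and 74.1 CPM in MaeaCsf1r-Cre libraries. Each MaeaCsf1r-Cre library was below its same-numbered control, with changes of -4.16, -24.5 and -8.41%, though the groups overlapped. Its log2 fold change was -0.19 (95% interval -0.58 to 0.19, adjusted p = 0.967, limma), and -0.03 without MaeaCsf1r-Cre replicate 2 and -0.30 without MaeaCsf1r-Cre replicate 1.

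*Ypel5* (chromosome 17, 72836453 to 72851195) was at 21.1, 30.8 and 23.3 CPM in control libraries and at 14.7, 19.6 and 27.1 CPM in MaeaCsf1r-Cre libraries. Replicates 1 and 2 were below their controls (changes of -30.0 and -36.4%), while replicate 3 was 16.4% higher. Its log2 fold change was -0.30 (95% interval -0.87 to 0.27, adjusted p = 0.967, limma), the widest interval among the 10. It was -0.10 without MaeaCsf1r-Cre replicate 1, -0.15 without control replicate 2 and -0.51 without MaeaCsf1r-Cre replicate 3.

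**Figure D2:**
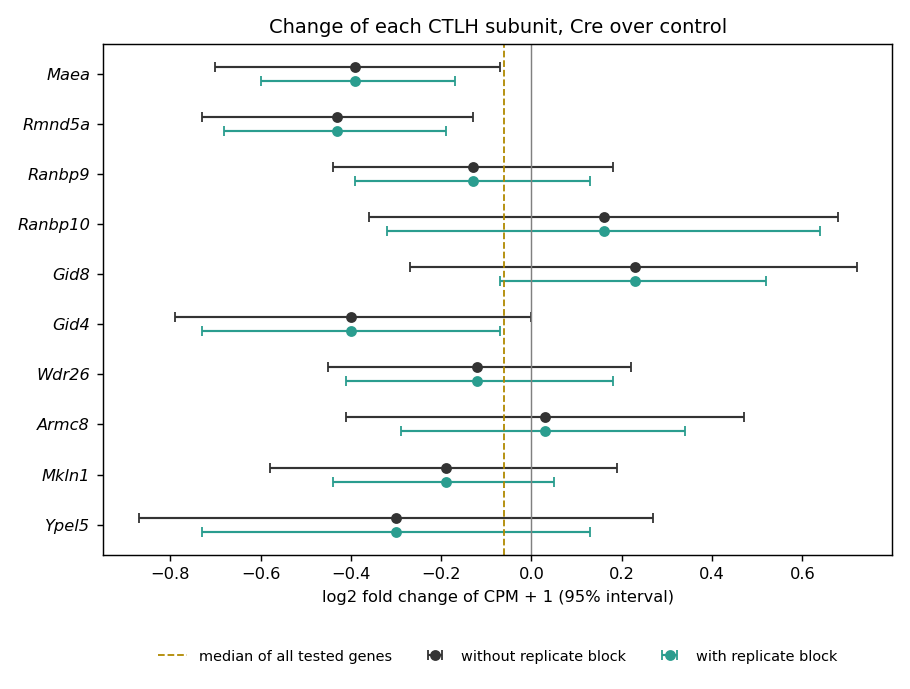
Log2 fold change of CPM + 1, MaeaCsf1r-Cre over control (horizontal axis), for each CTLH subunit, with 95% intervals from limma, without a block and with replicate number as a block (n = 3 libraries a group) and a dashed line at the median over all tested genes, -0.06. Without the block the intervals of *Maea* and *Rmnd5a* lie below 0 and that of *Gid4* reaches 0.00.

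By mean, 6 of the 9 partners of *Maea* were lower and 3 were higher in MaeaCsf1r-Cre HSCs, with a median log2 fold change of -0.13. Over all genes tested 60.9% were lower and the median was -0.06. With the CPM rescaled by median ratios the partner median was -0.07 where that of all genes was 0.00, and with quantile normalization -0.09 against 0.02. Libraries did not contribute evenly. MaeaCsf1r-Cre replicate 2 had the lowest value of all 6 libraries for 5 of the partners, namely *Ranbp9*, *Gid8*, *Gid4*, *Armc8* and *Mkln1*. Summed over the 9 partners it held 304 CPM, against 378 to 409 CPM in the other libraries, and without it the partner median was -0.06. The rows of the table made up 75.2% of the scaling reads in this library and 76.9 to 80.2% in the others, and its part in the result was not tested.

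Across all genes, log2 fold change was lower for genes with longer exons (Spearman's rho = -0.263 over 12449 genes, which are not independent replicates). With each library corrected for exon length, an alternative added after seeing the data, the log2 fold change was -0.32 for *Maea*, -0.30 for *Rmnd5a* and -0.29 for *Gid4*. The partner median became 0.03, equal to that of all genes, and *Wdr26* (0.03) and *Mkln1* (0.05) changed sign.

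Each partner was compared with the counted reads of *Maea*. The log2 value of *Maea* in the same library was subtracted from that of every gene, and the same model was fitted. Those reads cover all exons of *Maea*, so the comparison cannot show whether partners follow the loss of intact transcript. For *Rmnd5a* the difference from the change of *Maea* was -0.05 (95% interval -0.47 to 0.38), for *Gid4* -0.01 (-0.53 to 0.50) and for *Ypel5* 0.08 (-0.39 to 0.56). These intervals hold 0 but reach about as far from it as the change of *Maea* itself, so they do not show that the genes moved alike. The difference was 0.19 for *Mkln1* (-0.29 to 0.67), 0.25 for *Ranbp9* (-0.14 to 0.64) and 0.27 for *Wdr26* (-0.14 to 0.67). It was largest for *Armc8* at 0.41 (-0.11 to 0.93), *Ranbp10* at 0.54 (0.00 to 1.08) and *Gid8* at 0.61 (0.04 to 1.19).

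Without the block 0 of the 9 partners passed this test in limma (adjusted p under 0.05), where 0.0309% of all genes did. At an unadjusted p under 0.05 there were *Ranbp10* and *Gid8*, with 18.5% of genes. With the replicate block 3 of the 9 passed, *Gid8* (adjusted p = 0.00568), *Ranbp10* (adjusted p = 0.0221) and *Armc8* (adjusted p = 0.0408), each higher relative to *Maea* (limma). In that fit 35.1% of all genes passed, and 48.5% were under 0.05 unadjusted, as were the same 3 partners, so 3 of 9 is near the share of the whole transcriptome. All these comparisons share the 6 values of *Maea*. Without MaeaCsf1r-Cre replicate 1, where *Maea* was lowest, the difference was 0.35 for *Gid8* and 0.19 for *Armc8*.

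**Figure D3:**
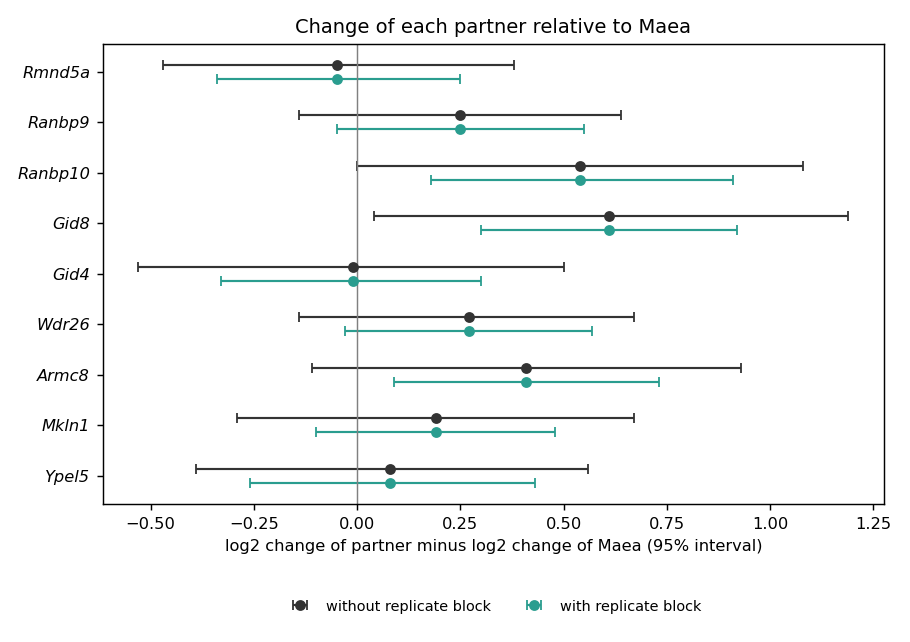
Log2 change of each partner minus that of *Maea*, MaeaCsf1r-Cre over control (horizontal axis), with 95% intervals from limma, without a block and with replicate number as a block (n = 3 libraries a group). *Rmnd5a*, *Gid4* and *Ypel5* sit near 0, and *Gid8* (0.61), *Ranbp10* (0.54) and *Armc8* (0.41) sit furthest to the right.

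Levels of different genes were compared per kilobase, since full-length cDNA gives more reads to longer transcripts. Over the union of its exons, 2.63 kb, *Maea* had 38.9 CPM per kb as a mean over the 6 libraries, with a range of 29.2 to 46.8. It was the most abundant subunit in all 6 libraries, in MaeaCsf1r-Cre HSCs too, at 44.0 ± 2.77 CPM per kb in control and 33.8 ± 4.58 CPM per kb in MaeaCsf1r-Cre HSCs (SD, n = 3 each). *Gid8* was next at 15.5 CPM per kb (12.4 to 21.0) and also held its rank in all 6 libraries.

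Then came *Gid4* at 9.35, *Ranbp9* at 8.62, *Rmnd5a* at 7.45, *Wdr26* at 5.78, *Ypel5* at 5.44 and *Armc8* at 5.03 CPM per kb, neighbours whose ranges overlapped. *Ranbp10* at 2.87 and *Mkln1* at 2.55 CPM per kb were lowest, and *Ranbp10* did not overlap with *Armc8* above it. The place of *Mkln1* rests on an exon union of 28.94 kb, and per length of its longest transcript it stood at 6.48 CPM per kb, above *Ranbp10*. Of the 45 pairs of subunits, 41 kept their order with the longest transcript and 34 with the mean length of coding transcripts. *Maea* was first by all 3 lengths. By the mean length of coding transcripts *Gid8*, at 20.6 CPM per kb, stood below *Ranbp9*, at 28.4 CPM per kb.

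*Maea* and *Rmnd5a*, the catalytic pair, were thus unequal in transcript level. The paralog *Rmnd5b*, described below, exceeded *Rmnd5a* per length in every library and is not counted in the ratios here. The ratio of *Rmnd5a* to *Maea* per length was 0.195, 0.220 and 0.172 in the control libraries and 0.216, 0.193 and 0.159 in the MaeaCsf1r-Cre libraries. The ranges overlapped, with means of 0.196 ± 0.0244 and 0.189 ± 0.0282 (SD, n = 3 each). The ratio of *Gid8* to *Maea* was 0.276 to 0.408 in control and 0.369 to 0.718 in MaeaCsf1r-Cre libraries.

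**Figure D4:**
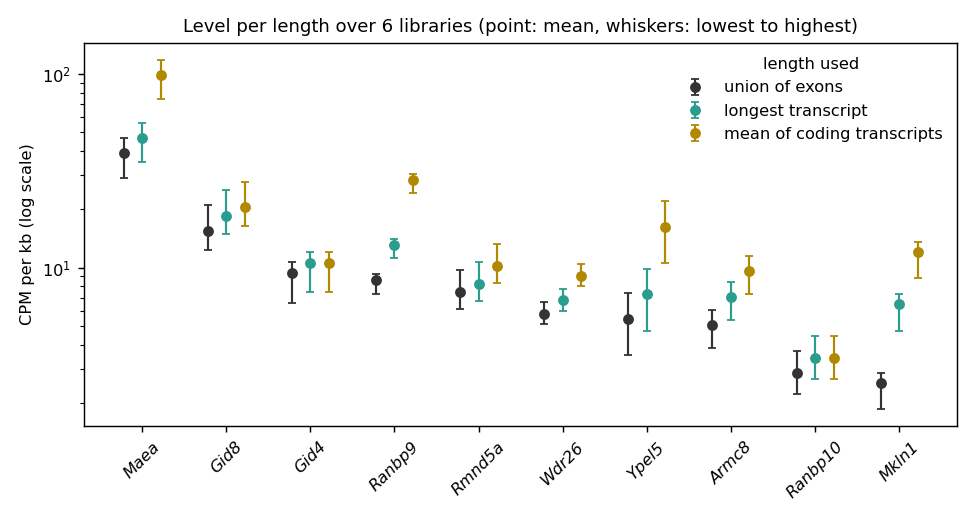
CPM per kilobase (log scale) of the 10 subunits over the 6 libraries, with the mean as a point and the lowest and highest library as whiskers, for 3 definitions of transcript length. *Maea* is highest by each of them, at 38.9 CPM per kb over the union of its exons, and *Mkln1* moves most with the definition.

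Of the genes most closely tied to the complex, none passed the test (limma, adjusted p of 0.967 to 0.973 for the 6 tested, 0.415 to 0.812 with the replicate block). *Ube2h*, the E2 enzyme that carries ubiquitin for the complex, was at 34.4, 36.4 and 25.3 CPM in control libraries and at 15.5, 19.9 and 32.3 CPM in MaeaCsf1r-Cre libraries. The pairs differed in sign, with changes of -54.8% and -45.4% in replicates 1 and 2 and of 27.7% in replicate 3, and its log2 fold change was -0.53 (95% interval -1.16 to 0.10). *Rmnd5b*, the paralog of *Rmnd5a*, had means of 57.1 ± 10.1 and 53.7 ± 6.20 CPM in control and MaeaCsf1r-Cre HSCs (SD, n = 3 each) and a log2 fold change of -0.08 (95% interval -0.46 to 0.30). Per length it exceeded *Rmnd5a* by 2.5 to 3.95 times in control and by 3.33 to 4.41 times in MaeaCsf1r-Cre libraries. It shares 44 bases of exon with *Nhp2* on the other strand.

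*Fam72a*, which encodes an adaptor that recruits the complex to uracil DNA glycosylase, had means of 3.17 ± 1.12 and 3.62 ± 0.896 CPM in control and MaeaCsf1r-Cre HSCs (SD, n = 3 each). The Yippee-like paralogs of *Ypel5* were lower by mean. *Ypel1* had a log2 fold change of -0.37 (95% interval -1.19 to 0.45), *Ypel2* of -0.42 (-1.11 to 0.27) and *Ypel3* of -0.30 (-1.02 to 0.43). *Ypel1*, at 4.83 to 15.8 CPM, shares 456 bases, 9.8% of its exons, with *Ppil2* on the other strand, which reached 113 CPM, and its value ran from -0.65 to -0.07 with a library left out. *Ypel4*, at most 0.438 CPM in any library, was not tested. The groups overlapped for all 6 tested genes of this kind, whose median log2 fold change was -0.34.

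Proteins reported as substrates of the mammalian complex gave no call at the level of RNA either (limma, adjusted p of 0.967 to 0.986). *Hbp1*, a transcriptional repressor, had means of 114 ± 16.9 and 92.4 ± 19.6 CPM in control and MaeaCsf1r-Cre HSCs (SD, n = 3 each) and a log2 fold change of -0.31 (95% interval -0.73 to 0.11). Its exons overlap those of *Cog5* on the other strand over 1514 bases, and those of *Hmgcs1* overlap an antisense gene over 557 bases. *Zmynd19* was higher in 3 of 3 same-numbered pairs, by 8.18 to 29.6%, as 13.2% of genes were, at 41.1 ± 6.99 and 48.1 ± 8.01 CPM (SD, n = 3 each). *Hmgcs1*, which makes the precursor of cholesterol, had a log2 fold change of -0.24 (95% interval -0.70 to 0.21). *Nmnat1*, an enzyme of NAD synthesis, had -0.04 (-0.56 to 0.47), a sign that turned with median-ratio scaling (0.01) and with quantile normalization (0.11).

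Genes of the wider ubiquitin system are given by counts for comparison. Of 9 tested genes for ubiquitin, E1 enzymes and general E2 enzymes, 7 were lower by mean, with a median log2 fold change of -0.06 and a range of -0.22 to 0.23. Of 21 core genes of the cullin-RING ligases 14 were lower, with a median of -0.05, and *Cul9* had the smallest p, with a log2 fold change of -0.50 (95% interval -1.09 to 0.09). Of 16 genes of the anaphase-promoting complex, another RING ligase of many subunits, 6 were lower, with a median of 0.02. In that list *Cdc16* had the smallest p, at 94.9 ± 4.58 and 78.8 ± 12.3 CPM (SD, n = 3 each), and in the first list it was *Rps27a*, at 56.5 ± 11.0 and 66.0 ± 11.5 CPM (SD, n = 3 each). Of all genes in these 3 lists 0 passed the test (limma, adjusted p of at least 0.05) and 0 were under 0.05 before adjustment. With the replicate block 5 of the 46 had an unadjusted p under 0.05, *Cul9*, *Cdc16* and *Rps27a* among them, against 13.9% of all genes tested. The groups did not overlap for 5 of the 46, 4 lower and 1 higher in MaeaCsf1r-Cre HSCs. Of all genes tested, 6.06% were lower and 2.49% higher in this way.

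**Figure D5:**
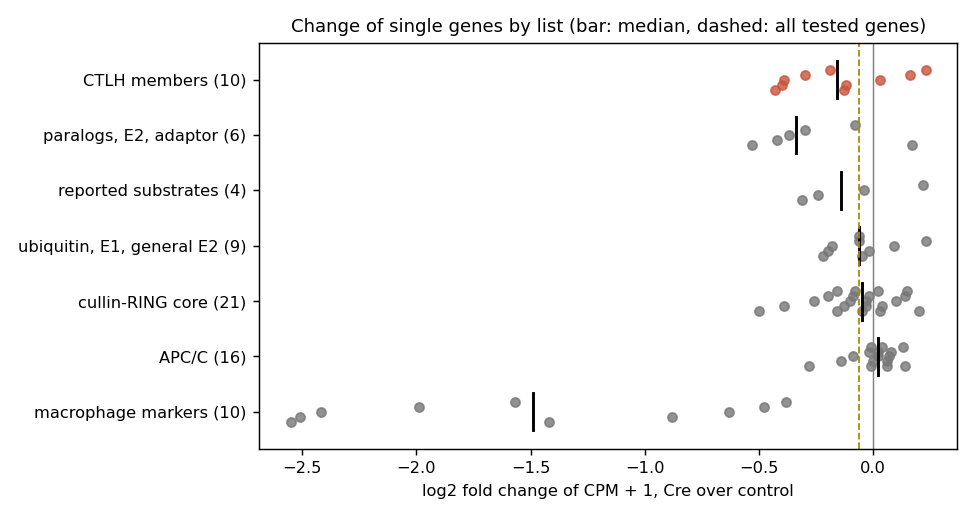
Log2 fold change of CPM + 1, MaeaCsf1r-Cre over control (horizontal axis), of single genes in 7 lists, with the number tested in brackets, a bar at the list's median and a dashed line at the median of all tested genes, -0.06. The 10 CTLH subunits lie between -0.43 and 0.23, while macrophage markers reach -2.55.

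The genes outside the complex whose pattern over the 6 libraries was most like that of *Maea* were *Dbt*, *Helz2*, *Hipk1*, *Fnip1* and *Slc2a3*. They were picked as the closest of all tested genes on only 6 values, so a link to *Maea* cannot be read from their likeness. The measure was the root mean square difference of log2(CPM + 1), each centred on its mean, which was 0.0228 for *Dbt* and 0.0474 to 0.0515 for the other 4. *Dbt*, a subunit of the branched-chain keto acid dehydrogenase, was at 8.71, 9.01 and 9.64 CPM in control libraries and at 5.71, 6.73 and 8.07 CPM in MaeaCsf1r-Cre libraries. Among the partners the closest were *Ranbp9*, at 0.161, and *Rmnd5a*, at 0.164, which ranked 890 and 945 of 12954 genes. *Gid8* was the most distant at 0.450, rank 11415.

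Markers of other cells were read in the same libraries. The HSC markers *Kit* (551 to 700 CPM in control, 393 to 562 in MaeaCsf1r-Cre libraries) and *Hlf* (90.6 to 203 and 41.5 to 139 CPM) were present in every library. Of 10 HSC markers, 8 were lower by mean in MaeaCsf1r-Cre HSCs and 2, *Ly6a* and *Slamf1*, were higher, with a median log2 fold change of -0.36, close in size to the values of *Maea*, *Rmnd5a* and *Gid4*. They summed to 922 to 1320 CPM in control and 677 to 1110 CPM in MaeaCsf1r-Cre libraries, and for 0 of the 10 was every MaeaCsf1r-Cre library below every control library. In limma 0 of the 10 had an unadjusted p under 0.05, and 7 had with the replicate block, against 13.9% of genes. Of these 7, 6 were lower and *Ly6a* was higher, and 0 passed after adjustment. The 14 macrophage markers summed to 271 to 338 CPM in control and 114 to 297 CPM in MaeaCsf1r-Cre libraries, most of it *Lyz2* (181 to 296 and 106 to 239 CPM). Of these 14, 10 were expressed highly enough to be tested and none was at 0 in all libraries. In every MaeaCsf1r-Cre library 6 were lower, where 6.06% of all genes tested were. *C1qb* was at 3.79 to 8.98 CPM in control and at 0.00 to 0.474 CPM in MaeaCsf1r-Cre libraries. In MaeaCsf1r-Cre replicate 3, *Vcam1* (30.0 CPM) and *Mrc1* (10.8 CPM) were above every control library, which reached 28.5 and 9.93 CPM. *Csf1r* itself, whose promoter drives the Cre, was at 2.31 to 7.89 and 0.141 to 2.18 CPM. Most HSC markers and most macrophage markers were thus lower by mean in the MaeaCsf1r-Cre group, as *Maea*, *Rmnd5a* and *Gid4* were, and their part in those differences was not tested.

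The summed levels of the other marker lists were as follows in control and MaeaCsf1r-Cre libraries. The 10 B cell markers, with *Ms4a1*, *Pax5* and *Igll1* at 0, summed to 33.9 to 56.0 and 13.9 to 27.0 CPM, and the 8 T cell markers, with *Cd3g* at 0, to 10.3 to 14.4 and 7.09 to 10.8 CPM. The 8 erythroid markers summed to 196 to 537 and 244 to 507 CPM, led by *Klf1*, and the 8 megakaryocyte markers to 296 to 1340 and 353 to 725 CPM, led by *Itga2b*. The 10 neutrophil markers, with *Mmp8* at 0, summed to 76.8 to 302 and 76.0 to 164 CPM. Of these 5 lists the B cell sums alone did not overlap between the groups.

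The reads behind the scaling, worked out from the steps between low values, numbered 33.0 to 39.6 M in control and 44.2 to 60.9 M in MaeaCsf1r-Cre libraries, so the control libraries were all shallower. A subunit's value rested on 493 to 4845 reads, a counting error of 1.44 to 4.50% that covers counting alone, since reads carried no molecular identifiers. Replicates varied more than that for most subunits, with a coefficient of variation of 6.29 and 13.6% for *Maea* and of 16.3 and 25.4% for *Gid8* in control and MaeaCsf1r-Cre HSCs. *Gid4* in control HSCs (0.833%) was below its counting error.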

How the data were processed

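RNA of HSCs from 3 control and 3 MaeaCsf1r-Cre libraries was made into cDNA with SMART-Seq v4 and Nextera XT. The authors aligned 150 bp single-end reads to mm10 with STAR 2.5.3a, quantified them to Ensembl Transcripts release 83 and used Partek Flow for normalisation. The submitters' processing notes also name Trim Galore. The deposited values are CPM per gene symbol with 0.0001 added, which was subtracted here. Of the low values 71.5 to 74.0% lay within 0.02 of a whole read, too few to recover reads, so a count test was not used. The 12955 genes that reached 1 CPM in 3 or more libraries were compared as log2(CPM + 1) by limma (linear model, trended moderated variance, two-sided), with Benjamini-Hochberg adjustment and a threshold of 0.05. To test a change relative to *Maea*, its log2 value was subtracted from every gene before the fit.

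Groups and replicate numbers came from the sample labels. After subtraction of group means, same-numbered libraries correlated over the tested genes (Pearson's r = 0.627, 0.523 and 0.397), so the numbers were taken to pair the libraries, and a replicate block was an alternative. The others were a pseudocount of 0.1, no filter, a CPM of at least 10, median ratios, quantile normalization, no trend, each library left out, other transcript lengths and a loess correction for exon length (span 0.5). Exons came from GENCODE M21 (GRCm38), a later annotation than the authors'. All subunits, the genes tied to the complex and its substrates are named. Of each wider ubiquitin list the gene with the smallest p is named where none passed. The 5 genes most like *Maea* and leading cell markers are also named. *C1qb*, *Csf1r*, *Vcam1* and *Mrc1* were chosen after their values were seen. One HSC marker is not reported here and was left out of the counts of its list. The members and lists were chosen with earlier results of these data known. The procedure was tested on simulated data with larger changes and a smaller spread than here and with no pairing. Its power for changes of the size seen here was therefore not tested. Python 3.11.15, pandas 2.3.3, numpy 2.4.6, matplotlib 3.10.9, R 4.3.3 and limma 3.58.1 were used.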

Additional observations from a re-analysis of the deposited data

How the results depend on the processing

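No subunit passed the adjusted threshold in any of the 15 alternatives, in which *Maea* (-0.48 to -0.29), *Rmnd5a* (-0.48 to -0.30) and *Gid4* (-0.57 to -0.26) were always lower, with adjusted p from limma of 0.218 to 1. The replicate block, which keeps fold changes, changed the calls only of *Gid8* (0.61), *Ranbp10* (0.54) and *Armc8* (0.41) relative to *Maea*. The single gene called of all genes tested, *BC023719*, was not called with a CPM of at least 10 (0 genes, and 302 at an unadjusted p under 0.05), and the count was 12 with the length correction and the replicate block. Leaving out a library gave 0 to 3 genes, 0 without control replicate 2 or 3 (266 and 331 at an unadjusted p under 0.05) and 3 without MaeaCsf1r-Cre replicate 3. The partner median was 0.03 with the length correction, with or without the replicate block, and -0.22 to -0.06 with a library left out. With the length correction, with or without the replicate block, the log2 fold changes of *Wdr26* (0.03), *Mkln1* (0.05) and *Nmnat1* (0.03) and the changes relative to *Maea* of *Rmnd5a* (0.02) and *Gid4* (0.03) turned sign. So did *Nmnat1* with median ratios (0.01) and quantile normalization (0.11), and *Gid4* relative to *Maea* with quantile normalization (0.01). With the length correction and the replicate block, *Wdr26* (0.35) and *Mkln1* (0.37) also passed relative to *Maea*, beside *Gid8* (0.61), *Ranbp10* (0.61) and *Armc8* (0.48), and *Gid8* passed with no filter (adjusted p = 0.0403, limma), where 8320 of 24899 genes passed relative to *Maea*, against 4 of 12954 with the filter. In each case the cause was not tested.

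Over the left-out libraries log2 fold changes ranged from -0.48 to -0.29 for *Maea*, -0.10 to 0.22 for *Armc8*, -0.17 to 0.06 for *Rmnd5b*, -0.20 to 0.13 for *Nmnat1*, -0.55 to 0.00 for *Ypel3*, -0.67 to -0.26 for *Ypel2*, -0.81 to -0.31 for *Ube2h*, -0.42 to -0.11 for *Hmgcs1*, -0.47 to -0.19 for *Hbp1*, 0.11 to 0.36 for *Zmynd19* and 0.01 to 0.38 for *Fam72a*. Changes relative to *Maea* ranged from -0.15 to 0.07 for *Rmnd5a*, -0.28 to 0.13 for *Gid4*, -0.02 to 0.36 for *Mkln1*, -0.03 to 0.24 for *Ypel5* and 0.35 to 0.81 for *Gid8*. Of the 45 pairs of subunits ordered by level per length, 41 kept their order with the longest transcript and 34 with the mean coding transcript.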
